A study of Mus musculus with 24 samples.

Results

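The activity-regulated immediate early genes described here are Fos, Fosb, Junb, Arc, Egr1, Egr3, Nr4a1, Nr4a2, Npas4 and Dusp1. They were chosen by name, and all 10 were found by symbol among the 37289 genes of the deposited RNA tables. RNA came from micropunched striatum of 12 C57BL/6 mice labelled female, 3 in each of 4 groups, killed 2 hours after lights on. The groups were Cntnap2 heterozygous (het) mice from stressed dams, wild-type mice from stressed dams, het mice from unstressed dams and wild-type mice from unstressed dams. Cntnap2 encodes Caspr2, a cell adhesion protein of neurons. The variable stress was given to pregnant dams for 7 days from embryonic day 12.5, so the mice themselves were stressed only before birth. All offspring, control litters included, were ear-tagged at postnatal day 12 and weaned at day 18. Age at death and the nature of the het allele are not stated in the labels, and the mice are called stressed or unstressed below by what their dams received.

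Immediate early genes are transcribed within minutes of synaptic input, without new protein synthesis, from promoters held ready by factors such as CREB and SRF. Calcium entry, cyclic AMP and the MAP kinase pathway switch them on, and their transcripts are short-lived, so their level at death reflects the preceding minutes to hours. In the striatum, dopamine and glutamate acting on spiny projection neurons are the best known triggers. Most members encode transcription factors that act on later genes. Arc acts at the synapse, and Dusp1 shuts the pathway off.

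The libraries held 13587154 to 24039706 expected counts, and 15955 genes passed the filter on low counts, all 10 members among them. All 6 het libraries (21410135 to 24039706) were deeper than all 6 wild-type libraries (13587154 to 18538304), so depth and genotype cannot be told apart. Cntnap2 itself was at 35.97 to 59.5 TPM (transcript abundance corrected for length and depth) in het libraries and 39.7 to 68.3 TPM in wild-type libraries, and these ranges overlapped. Some libraries stood apart. Wild-type stressed replicate 2 held 1.32 TPM of Xist, the X-inactivation transcript that marks female cells, against 23.1 to 108.6 TPM in the other 11 libraries. Whether this mouse was female, as labelled, was not tested. Het unstressed replicate 1 carries another animal number in its RNA data than in its label. The level of long relative to short transcripts also varied. Its slope, in log2 CPM (counts scaled to library depth) per doubling of transcript length and relative to the mean library, was -0.37 in het unstressed replicate 1 and -0.30 in wild-type unstressed replicate 1, against -0.08 to 0.29 in the other 10. Markers of spiny projection neurons, the main striatal cell type, were high: Ppp1r1b, which encodes a dopamine-regulated phosphatase inhibitor, was at 1109 to 2759 TPM. Glutamatergic markers of cortex were also present in every library, with Slc17a7, a vesicular glutamate transporter, at 9.47 to 134.8 TPM.

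Promoter sequences were taken from RefSeq (GRCm38.p6), from 250 bases before to 50 bases after the start site. They were searched for 7 of the 10 members: Fos, Fosb, Junb, Nr4a1, Nr4a2, Npas4 and Dusp1. No sequence was at hand for Arc and Egr3. Egr1 was not searched either, so the motif counts below do not cover Arc, Egr1 and Egr3. Nr4a1 and Nr4a2 are members of 1 family. The promoters of Fos, Junb, Dusp1, Nr4a1 and Nr4a2 are shown because the results below turn on these genes. They lie at chr12:85473640-85473939 (plus strand), chr8:84978699-84978998 (minus strand), chr17:26508423-26508722 (minus strand), chr15:101266596-101266895 (plus strand) and chr2:57123954-57124253 (minus strand). Each is written 5′ to 3′ on the gene's own strand, and capitals mark every match to the core of the cyclic AMP response element, TGACG on either strand (CGTCA on the strand shown).
Fos: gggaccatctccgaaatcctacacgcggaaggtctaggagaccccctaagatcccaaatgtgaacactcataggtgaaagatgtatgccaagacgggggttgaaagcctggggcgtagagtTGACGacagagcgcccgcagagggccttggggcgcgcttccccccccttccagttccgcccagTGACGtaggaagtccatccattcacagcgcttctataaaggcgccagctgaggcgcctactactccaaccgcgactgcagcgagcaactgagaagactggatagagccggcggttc
Junb: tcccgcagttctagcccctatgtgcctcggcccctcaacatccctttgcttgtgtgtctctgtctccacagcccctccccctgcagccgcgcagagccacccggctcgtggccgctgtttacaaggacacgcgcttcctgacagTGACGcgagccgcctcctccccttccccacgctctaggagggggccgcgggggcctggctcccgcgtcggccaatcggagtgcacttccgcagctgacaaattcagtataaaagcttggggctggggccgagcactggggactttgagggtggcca
Dusp1: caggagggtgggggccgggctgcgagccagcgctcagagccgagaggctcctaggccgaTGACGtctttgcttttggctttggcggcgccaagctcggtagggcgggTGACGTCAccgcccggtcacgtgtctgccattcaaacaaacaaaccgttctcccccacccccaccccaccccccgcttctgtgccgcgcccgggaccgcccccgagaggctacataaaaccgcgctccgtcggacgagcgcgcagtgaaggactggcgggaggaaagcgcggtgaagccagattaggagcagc
Nr4a1: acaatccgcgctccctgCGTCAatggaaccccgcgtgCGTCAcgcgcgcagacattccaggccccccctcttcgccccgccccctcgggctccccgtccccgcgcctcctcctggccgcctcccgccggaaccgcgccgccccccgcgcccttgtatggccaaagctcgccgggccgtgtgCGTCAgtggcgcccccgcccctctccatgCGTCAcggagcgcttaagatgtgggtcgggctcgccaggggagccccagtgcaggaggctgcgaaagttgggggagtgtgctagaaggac
Nr4a2: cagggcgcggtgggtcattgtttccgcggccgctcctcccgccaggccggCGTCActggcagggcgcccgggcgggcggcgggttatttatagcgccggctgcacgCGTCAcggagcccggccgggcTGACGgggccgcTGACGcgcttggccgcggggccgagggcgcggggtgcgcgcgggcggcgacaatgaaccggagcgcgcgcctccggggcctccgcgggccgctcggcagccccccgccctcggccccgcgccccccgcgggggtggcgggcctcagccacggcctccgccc
The core was found in 7 of 7 promoters searched, against 20.8% of all 32851 RefSeq mouse promoters of the same 300 bases. G and C made up 58.7 to 81.7% of the 7, and the share over all promoters was not matched for base composition. Nr4a1 and Nr4a2 held 4 matches each, Dusp1 held 3, Fos and Npas4 held 2, and Fosb and Junb held 1. The Fos matches began 129 and 66 bases before the start site. The full palindrome TGACGTCA, which contains the core on both strands, was in 1 of the 7, that of Dusp1, beginning 143 bases before the start site, against 1.79% of all promoters. The binding site of EGR proteins, searched as a pair of 9-letter forms on both strands, was in the promoters of Fosb and Nr4a1, against 3.47% of all promoters. The CArG box, the site read by SRF, was in 0 of 7 in this window, against 1.63% of all promoters. These are matches of letters only, and the start sites are those of RefSeq rather than of these libraries.

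The members spanned a wide range of levels. TPM is corrected for transcript length, so it can be compared between genes. Egr1, a zinc-finger factor, was the most abundant at 117.2 ± 44.6 TPM (mean ± SD, n = 12 libraries), and it exceeded Arc in 12 of 12 libraries. Arc (71.8 ± 25.6 TPM), Junb (71.4 ± 15.3 TPM), Nr4a1 (58.3 ± 22.1 TPM) and Egr3 (52.9 ± 19.2 TPM) followed. Their order did not hold library by library: Arc exceeded Junb in 7 of 12, Junb exceeded Nr4a1 in 9 of 12 and Nr4a1 exceeded Egr3 in 9 of 12. Dusp1 came next at 25.6 ± 6.29 TPM, below Egr3 and above Fos in 12 of 12 libraries. Fos averaged 10.9 ± 4.45 TPM, Npas4 7.56 ± 2.89 TPM, Nr4a2 5.84 ± 4.6 TPM and Fosb 3.78 ± 1.61 TPM. Fos exceeded Npas4 in 11 of 12 libraries, Npas4 exceeded Nr4a2 in 9 and Nr4a2 exceeded Fosb in 7.

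**Figure D1:**
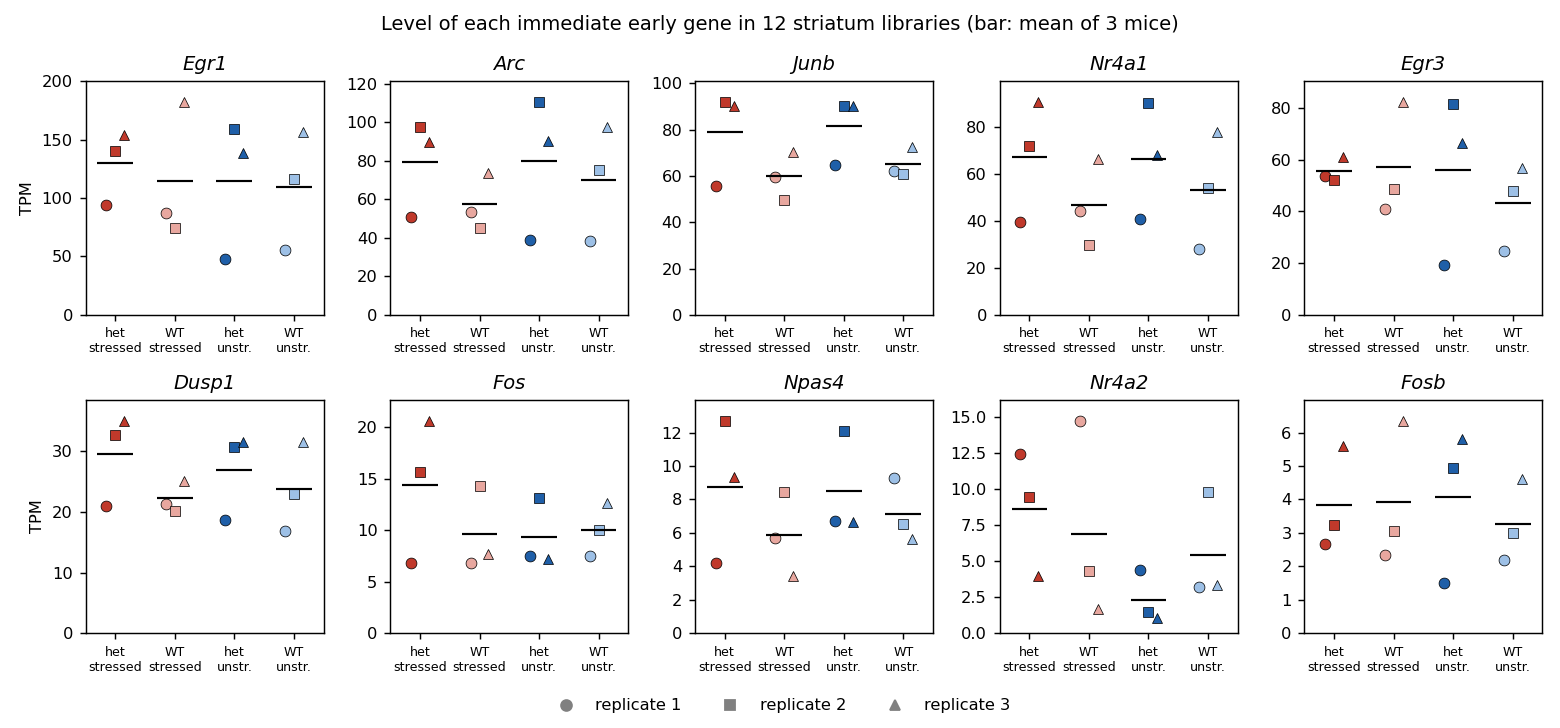
TPM (vertical axis, from 0, own scale for each gene) of the 10 genes in every library, by group on the horizontal axis; points are mice, with the shape giving the replicate number, and bars are means of 3 mice. Groups overlap for every gene, and Nr4a2 has the widest spread, with 14.8 TPM in wild-type stressed replicate 1 and 1.03 TPM in het unstressed replicate 3.

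The AP-1 members encode proteins that pair into 1 transcription factor complex, with Fos and Fosb on one side of the dimer and Junb on the other. Fos had 6.81, 15.7 and 20.6 TPM in het stressed mice, 6.84, 14.3 and 7.73 TPM in wild-type stressed mice, 7.55, 13.1 and 7.27 TPM in het unstressed mice and 7.5, 10.03 and 12.6 TPM in wild-type unstressed mice. Each group held both a mouse below 8 TPM and 1 above 12 TPM. Fosb, whose short splice form accumulates on repeated activation, had 2.67, 3.24 and 5.61 TPM in het stressed, 2.35, 3.07 and 6.35 TPM in wild-type stressed, 1.5, 4.93 and 5.8 TPM in het unstressed and 2.19, 2.99 and 4.6 TPM in wild-type unstressed mice. Replicate 3 of each group had the highest Fosb, and it also had the highest length slope of its group, though the labels do not say that the number marks a batch. The files list 1 transcript of Fosb, so its splice forms were not resolved.

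Junb, which can restrain the activity of other AP-1 proteins, was far steadier. It had 55.5, 91.8 and 89.97 TPM in het stressed mice, 59.7, 49.7 and 70.3 TPM in wild-type stressed mice, 64.6, 90.3 and 90.2 TPM in het unstressed mice and 61.98, 60.8 and 72.3 TPM in wild-type unstressed mice. In 4 of 6 het libraries Junb was at 89.97 TPM or more, a level that none of the 6 wild-type libraries reached, while the 2 lowest het libraries lay within the wild-type range. On the CPM scale the unstressed groups separated: 114.1, 112.2 and 101.8 CPM in het mice were all above 93.6, 78.9 and 75.02 CPM in wild-type mice. In TPM those groups overlapped.

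The EGR and NR4A members are DNA-binding factors of separate families. Egr1 had 94.3, 140.6 and 154.2 TPM in het stressed, 87.6, 74.2 and 182.1 TPM in wild-type stressed, 47.5, 158.9 and 138.5 TPM in het unstressed and 55.1, 116.4 and 156.99 TPM in wild-type unstressed mice. Egr3, a relative of Egr1 that mice need to form muscle spindles, had 53.6, 52.04 and 60.9 TPM in het stressed, 40.8, 48.7 and 82.1 TPM in wild-type stressed, 19.4, 81.5 and 66.4 TPM in het unstressed and 24.6, 48.01 and 56.9 TPM in wild-type unstressed mice. Het unstressed replicate 1 and wild-type unstressed replicate 1, the libraries with the lowest length slopes, were the lowest of all 12 for both genes. Across the 12 libraries Pearson's r of log2 CPM with the length slope was 0.79 for Egr1, 0.75 for Egr3 and 0.73 for Fosb, against -0.68 for Npas4 and -0.51 for Nr4a2. On log2(TPM + 1) that r was 0.89 for Egr1, 0.88 for Egr3, 0.85 for Fosb, 0.71 for Arc, 0.69 for Dusp1 and 0.65 for Nr4a1. It was 0.36 for Junb and 0.21 for Fos, and negative for Nr4a2 (-0.28) and Npas4 (-0.38). The points share library and slope, and the part of the slope in these levels was not tested.

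Nr4a1 and Nr4a2 encode orphan nuclear receptors whose activity is set mainly by how much is made. Nr4a1 had 39.6, 71.6 and 90.4 TPM in het stressed, 44.2, 29.6 and 66.1 TPM in wild-type stressed, 40.7, 90.3 and 67.97 TPM in het unstressed and 28.1, 53.8 and 77.9 TPM in wild-type unstressed mice. Nr4a2, also a known mark of claustrum and deep cortical neurons and of midbrain dopamine neurons, had 12.5, 9.47 and 4 TPM in het stressed, 14.8, 4.34 and 1.68 TPM in wild-type stressed, 4.42, 1.5 and 1.03 TPM in het unstressed and 3.19, 9.8 and 3.39 TPM in wild-type unstressed mice. Its highest library was 14.3 times its lowest in TPM, and both extremes fell inside groups whose ranges overlap. Nr4a2 was also the member whose leading transcript took the smallest share: that transcript, of 2400 bases, took a median of 48.9% (25.2 to 87.0%) of its RNA, whereas that of Dusp1 took 92.6% (87.3 to 95.9%).

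Npas4, a neuron-restricted factor that responds to calcium entry more selectively than the others, had 4.2, 12.7 and 9.32 TPM in het stressed, 5.71, 8.45 and 3.45 TPM in wild-type stressed, 6.73, 12.1 and 6.64 TPM in het unstressed and 9.27, 6.52 and 5.62 TPM in wild-type unstressed mice. Arc, a capsid-like protein that drives removal of AMPA receptors from synapses, had 50.7, 97.7 and 89.98 TPM in het stressed, 53.5, 45.02 and 73.8 TPM in wild-type stressed, 38.95, 110.5 and 90.3 TPM in het unstressed and 38.2, 75.05 and 97.7 TPM in wild-type unstressed mice. Its reads fell on annotated transcripts of nearly equal length, with medians of 62.7% and 37.3%. Dusp1, a phosphatase that switches off MAP kinases, had 20.97, 32.7 and 34.95 TPM in het stressed, 21.3, 20.1 and 25.1 TPM in wild-type stressed, 18.6, 30.7 and 31.4 TPM in het unstressed and 16.8, 22.96 and 31.4 TPM in wild-type unstressed mice. In 4 of 6 het libraries Dusp1 was at 30.7 TPM or more, against 1 of 6 wild-type libraries, and the ranges overlapped. Its lowest levels, 16.8 and 18.6 TPM, were in the libraries of the lowest length slopes.

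How far mice of 1 group differed from each other set what could be detected. The within-group SD of log2 CPM was 1.34 for Nr4a2, higher than in 98.8% of genes tested, and 0.71 for Npas4, higher than in 92.8%. It was 0.59 for Fos, 0.52 for Fosb, 0.50 for Egr1, 0.47 for Egr3, 0.45 for Nr4a1 and 0.42 for Arc. Junb (0.22) and Dusp1 (0.21) varied less than the median gene (0.31). Of the 12 libraries, het unstressed replicate 2 held the highest CPM of 6 of the 10 members, and het stressed replicate 1 had 2 of 10 members above their median over libraries, against 8 and 9 in the other het stressed mice.

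The difference between genotypes was asked over both prenatal conditions, with 6 het and 6 wild-type mice. Of the 10 members, 9 had a positive log2 fold change, with a median of 0.28, against 50.3% positive and a median of 0.00 over all genes tested. The members were read in the same mice and partly varied together (median r of 0.38 over their pairs), so the 9 are not independent. None of the 10 members passed edgeR's quasi-likelihood test at an adjusted p of 0.05, and 0.00627% of all genes (1 gene) did. At an unadjusted p under 0.05 edgeR gave 1 member, DESeq2 gave 2, limma on log2(TPM + 1) gave 1 and limma-voom with sample weights gave 7, and none of these tools called a member after adjustment. Over all 15955 genes edgeR, DESeq2 and limma-voom gave 113, 118 and 3775 genes at an unadjusted p under 0.05. Limma on log2(TPM + 1) gave 82, among genes with a mean of at least 1 TPM rather than those 15955. Junb had the smallest p, with a log2 fold change of 0.35 ± 0.13 (SE) and an adjusted p of 0.9999 (unadjusted p = 0.0197) in edgeR's quasi-likelihood test. Dusp1 followed at 0.27 ± 0.12 with an unadjusted p of 0.0501 in the same edgeR fit. Because these are pieces of tissue, more active cells and more RNA per active cell cannot be told apart.

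The other members had wider errors. The log2 fold change of het over wild type was 0.44 ± 0.23 for Nr4a1, 0.32 ± 0.22 for Arc, 0.33 ± 0.35 for Npas4 and 0.30 ± 0.29 for Fos. It was 0.15 ± 0.23 for Egr3, 0.13 ± 0.27 for Fosb and 0.13 ± 0.25 for Egr1, all smaller than their SE. Nr4a2 was the only member with a negative value, -0.35 ± 0.65. Leaving out 1 library at a time kept the median of the members between 0.19 and 0.39 and left none called. Egr1 and Egr3 turned slightly negative without het unstressed replicate 2 (-0.02 and -0.03), Fosb without het stressed replicate 3 (-0.04), and Nr4a2 became 0.26 without wild-type stressed replicate 1. Without wild-type stressed replicate 2, the library of low Xist, the median was 0.27 with 9 of 10 positive, and without het unstressed replicate 1 it was 0.30 with 9 of 10 positive.

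**Figure D2:**
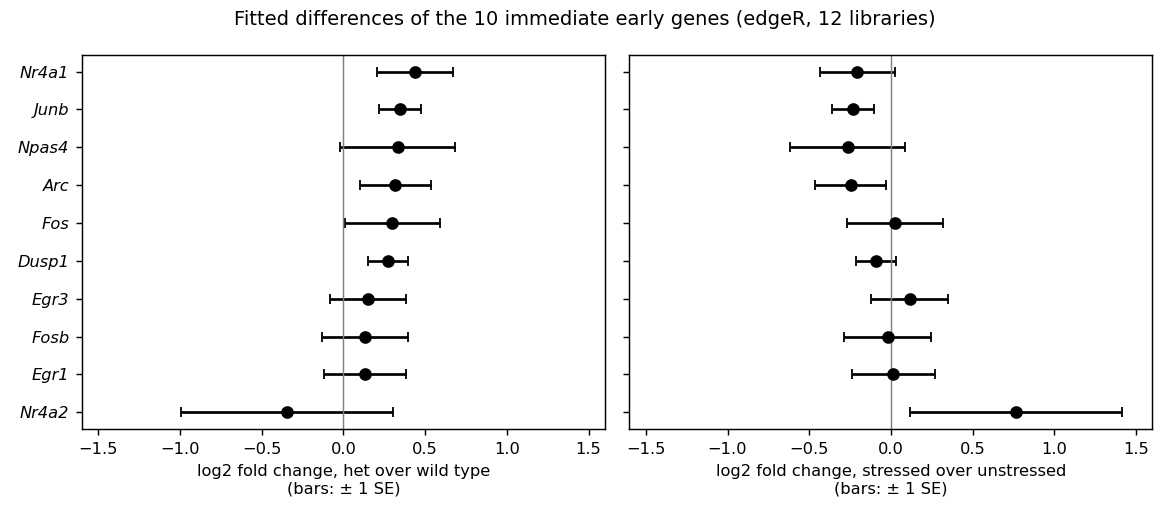
Log2 fold change on the horizontal axis, het over wild type on the left and stressed over unstressed on the right, for each of the 10 genes, with bars of 1 SE from the edgeR fit of 12 libraries. On the left 9 of 10 points lie above 0 and Nr4a2 lies at -0.35; on the right the points fall on both sides of 0, and Nr4a2 lies at 0.76.

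The same question was asked within each prenatal condition. In unstressed mice 9 of 10 members had a positive log2 fold change of het over wild type, with a median of 0.27. Without het unstressed replicate 2, which held the highest CPM of 6 members, 6 of 10 were positive and the median was 0.04. The median was 0.43 in limma-voom and 0.17 on log2(TPM + 1), with 9 and 8 positive. None of the 10 was called by edgeR, with 0.00627% of all genes called and 1 member at an unadjusted p under 0.05. Junb had a log2 fold change of 0.41 ± 0.18 (unadjusted p = 0.0444 in edgeR), and Dusp1 had 0.25 ± 0.17. Junb was the 1 member of 10 whose CPM did not overlap between these groups, and 3.38% of all genes did not overlap. DESeq2 and limma on log2(TPM + 1) called no member here, with 1 at an unadjusted p under 0.05 in DESeq2. Limma-voom with sample weights called Egr3 (log2 fold change 0.57, limma-voom adjusted p = 0.0485) and gave 4 members at an unadjusted p under 0.05, in a fit that called 983 genes and gave 4303 of 15955 at an unadjusted p under 0.05. In stressed mice 8 of 10 members were positive, with a median of 0.29. That median was 0.14 without het stressed replicate 2 and 0.46 without het stressed replicate 1, with 8 of 10 positive in each, and 0.18 with 10 positive in limma-voom. Dusp1 had 0.29 ± 0.17 and Junb 0.29 ± 0.18. In edgeR none was called there, with 0.00627% of all genes called and 0 members at an unadjusted p under 0.05, and DESeq2 and both limma fits called none. No member's CPM separated the genotypes in stressed mice, where 5.19% of all genes did.

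With prenatal stress the members did not share a direction, and how many were positive depended on the fit. Averaged over genotype, 4 of 10 members had a positive log2 fold change of stressed over unstressed, with a median of -0.06, against 49.9% positive and a median of 0.00 over all genes tested. It was 2 of 10 with a median of -0.24 in limma-voom and 6 of 10 with a median of 0.06 on log2(TPM + 1), a scale on which the median of all genes was 0.14. Leaving out 1 library gave medians of -0.17 to 0.03, with 2 positive without het stressed replicate 3 or het unstressed replicate 1 (medians -0.17 and -0.15), and 5 positive with a median of 0.03 without het stressed replicate 1. None was called by edgeR (0% of all genes called), and 0 members had an unadjusted p under 0.05. DESeq2 and both limma fits called none either, with 5 members at an unadjusted p under 0.05 in limma-voom and 0 in DESeq2, where 2098 and 455 of all 15955 genes had such a p. Among the AP-1 members the value was -0.23 ± 0.13 for Junb, 0.02 ± 0.29 for Fos and -0.02 ± 0.27 for Fosb. Egr1 had 0.02 ± 0.25 and Egr3 0.11 ± 0.23. The nuclear receptors had -0.21 ± 0.23 for Nr4a1 and 0.76 ± 0.65 for Nr4a2. Arc had -0.25 ± 0.22, Npas4 -0.27 ± 0.35 and Dusp1 -0.09 ± 0.12. For Fos, Fosb, Egr1 and Egr3 the sign depended on which library was left out.

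In wild-type mice alone, 4 of 10 members were positive after prenatal stress, with a median of -0.14, and the smallest p belonged to Egr3 (0.37 ± 0.33) and Arc (-0.30 ± 0.31). Leaving out 1 library kept that median negative, between -0.20 and -0.05, with 3 or 4 positive. In het mice 3 of 10 were positive, with a median of -0.17, led by Junb (-0.29 ± 0.18) and Nr4a2 (1.30 ± 0.93). That direction rested on single libraries: 7 of 10 were positive with a median of 0.04 without het unstressed replicate 2, and 7 of 10 with a median of 0.06 without het stressed replicate 1. It was 1 of 10 with a median of -0.21 without het stressed replicate 3, 1 of 10 with -0.41 in limma-voom and 8 of 10 with 0.10 on log2(TPM + 1), where the median of all genes was 0.24. EdgeR called 0 members in either comparison, with 0% of all genes called in each and 0 members at an unadjusted p under 0.05. DESeq2 and limma on log2(TPM + 1) called none, with 1 member in het mice at an unadjusted p under 0.05 in that limma fit, and limma-voom called none with 1 member in wild-type mice and 4 in het mice at an unadjusted p under 0.05, where 2296 and 1974 of all genes had such a p. No member's CPM separated stressed from unstressed mice, as 5.79% of all genes did in wild-type mice and 6.68% in het mice. Het stressed and wild-type unstressed mice differ in both factors. Between them 10 of 10 members were positive with a median of 0.16. The count was 7 of 10 without het stressed replicate 2 (median 0.13), het stressed replicate 3 (0.04) or wild-type unstressed replicate 1 (0.08), and 6 of 10 with a median of 0.03 in limma-voom. The median was 0.29 without het stressed replicate 1, 0.25 without wild-type unstressed replicate 3 and 0.33 on log2(TPM + 1), where that of all genes was 0.16. The smallest p belonged to Dusp1 (0.18 ± 0.17) and Egr3 (0.27 ± 0.33), and none was called by edgeR (0.00627% of all genes called, 0 members at an unadjusted p under 0.05) or by DESeq2 or either limma fit, with 0 at an unadjusted p under 0.05 in each. No CPM separated there, against 6.31% of all genes. These comparisons share groups of mice.

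The interaction asks whether the stress difference depends on genotype. Its smallest p values belonged to Egr3 (-0.51 ± 0.47) and Fosb (-0.46 ± 0.53), and 0 members were called by edgeR (0% of all genes called, 0 members at an unadjusted p under 0.05). DESeq2 and both limma fits called none, with 2 members at an unadjusted p under 0.05 in limma-voom, as had 2405 of all genes. The SEs ran from 0.25 for Dusp1 to 1.29 for Nr4a2 on the log2 scale. Egr3 exceeded its SE and still had an unadjusted p of 0.30 in edgeR. At this number of mice only interactions well above their SE could be detected.

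Genes of the same response were read beside the members, with values again as log2 fold change of het over wild type ± SE. Of the 18 other rapid transcription factor genes listed, 17 passed the filter and 13 had a positive value, with a median of 0.10. Egr2 (0.59 ± 0.29) and Egr4 (0.34 ± 0.23), the remaining members of the EGR family, had the smallest p. Fosl1, the gene that did not pass, was at most at 0.08 TPM. Of 23 rapid signalling and effector genes 19 were positive, with a median of 0.08, led by the feedback inhibitors Dusp6 (0.29 ± 0.16) and Spry2 (0.18 ± 0.10). Of 16 delayed secreted and synaptic genes 11 were positive, with a median of 0.06, led by Nptx2 (0.18 ± 0.14), which clusters AMPA receptors, and the opioid precursor Penk (0.12 ± 0.12). Of 24 upstream regulators 14 were positive, with a median of 0.01, led by Elk3 (0.24 ± 0.13). Glucocorticoid response genes were mostly negative, with 2 of 12 positive and a median of -0.09. Pdk4, a mitochondrial kinase among them, had 0.46 ± 0.15 (unadjusted p = 0.0113), and Cdkn1a had -0.16 ± 0.22. In edgeR 0 of the 91 genes tested in these 5 lists were called, and at an unadjusted p under 0.05 only Pdk4 appeared. DESeq2, limma-voom and limma on log2(TPM + 1) called none of them either. DESeq2 and limma-voom gave 2 and 31 at an unadjusted p under 0.05, against 118 and 3775 of all 15955 genes. On log2(TPM + 1) it was 0 of 90, against 82 of the genes with a mean of at least 1 TPM. Errfi1 stands in both the signalling and the glucocorticoid list.

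**Figure D3:**
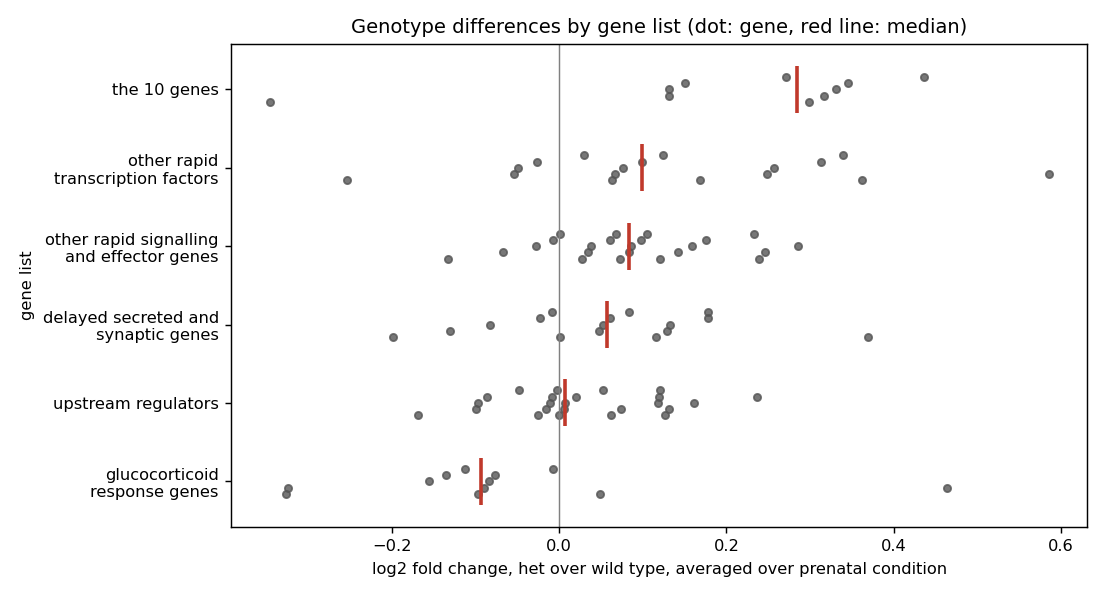
Log2 fold change of het over wild type (horizontal axis), averaged over prenatal condition, for each tested gene of the 10 members and of 5 related lists; dots are genes and red lines are medians. The median is 0.28 for the members, 0.10 and 0.08 for the other rapid genes, and -0.09 for glucocorticoid response genes.

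Markers of cell types gave the makeup of the punches beside these values. Of 12 spiny neuron markers 12 had a positive value of het over wild type with a median of 0.12, led by Adora2a (0.16 ± 0.12). By condition that median was 0.26 in unstressed mice, with 12 of 12 positive, and -0.03 in stressed mice, with 3 of 12 positive, whereas the members' medians were 0.27 and 0.29. Of 10 cortical excitatory markers 2 were positive, with a median of -0.05, and Cux2 stood at -0.19 ± 0.23. By condition the cortical median was -0.28 in unstressed mice (2 of 10 positive) and 0.07 in stressed mice (7 of 10). Of 9 claustrum and subplate markers 3 were positive, with a median of -0.14, led by Nxph4 (-0.26 ± 0.19) and Gng2 (-0.22 ± 0.20). Of 8 thalamic markers 0 were positive, with a median of -0.38, led by Prkcd (-1.01 ± 0.34) and Rgs16 (-0.56 ± 0.27). That median was -0.95 in unstressed mice and -0.10 in stressed mice. Their summed level was 150.05 TPM in wild-type unstressed replicate 3, against 55.8 and 50.38 TPM in the other mice of that group. In the other groups it was at most 52.5 TPM. Choroid plexus markers swung widely, with 8 of 8 positive and a median of 0.97, led by Ttr (2.76 ± 1.30) and Kcne2 (3.08 ± 1.52), of which Kcne2 was at 0 in 2 libraries. By condition their median was 0.22 in unstressed and 1.81 in stressed mice, with 7 of 8 positive in each. Their summed level was 575.45 TPM in het stressed replicate 3, against 12.83 and 16.25 TPM in the other het stressed mice. It was 6.38 to 24.69 TPM in wild-type stressed mice. In unstressed mice it was 9.96 to 854.98 TPM in het and 301.54 to 580.13 TPM in wild type. The averaged median was 0.05 for the endothelial and mural, -0.01 for the microglial, 0.03 for the astrocytic and -0.05 for the oligodendrocyte list, with Rgs5 at 0.09, Slco1a4 at 0.08, P2ry12 at 0.08, Slc1a3 at 0.10, Gfap at -0.09, Mbp at -0.13 and Ermn at -0.11. The oligodendrocyte average joined opposite signs, a median of -0.31 in unstressed mice (0 of 9 positive) and 0.18 in stressed mice (9 of 9 positive). Astrocytic medians were -0.09 (2 of 8 positive) in unstressed mice and 0.14 (8 of 8) in stressed mice. No marker was called by edgeR, DESeq2 or either limma fit. In edgeR Prkcd alone of 82 markers tested had an unadjusted p under 0.05. DESeq2 gave 4 and limma-voom 35 of the same 82, and limma on log2(TPM + 1) gave 0 of 79. With prenatal stress, averaged over genotype, the cortical excitatory median was 0.41 (9 of 10 positive). The claustrum and subplate median was 0.16 (7 of 9). The oligodendrocyte and choroid plexus medians were -0.27 (0 of 9) and -1.94 (0 of 8). The cortical median was 0.62 (8 of 10) in het mice, where Nr4a2 had 1.30. It was 0.28 (8 of 10) in wild-type mice, where Nr4a2 had 0.22. EdgeR called none of these markers. The part of tissue makeup in the members' values was not tested.

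Members did not vary as 1 block from mouse to mouse. Over the 45 pairs of members, Pearson's r of log2 CPM across 12 libraries had a median of 0.38, between -0.86 and 0.90. Without Nr4a2 the median of 36 pairs was 0.50, with 30 positive, and for the 9 pairs with Nr4a2 it was -0.38, with 2 positive. Arc, Nr4a1 and Dusp1 went together, with r of 0.90 for Arc and Nr4a1, 0.87 for Nr4a1 and Dusp1, and 0.85 for Arc and Dusp1. Egr1 was at 0.83 with Arc, 0.83 with Egr3, 0.80 with Fosb, 0.75 with Nr4a1 and 0.53 with Dusp1. Fos and Npas4 went together at 0.80, while Npas4 and Egr1 were at -0.25. Fosb and Nr4a2 were the most opposed, at -0.86. Taking deviations from the group means gave a median of 0.31, and log2(TPM + 1) gave 0.525. All points share their library, its depth and its length slope, and no p is given for these pairs.

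**Figure D4:**
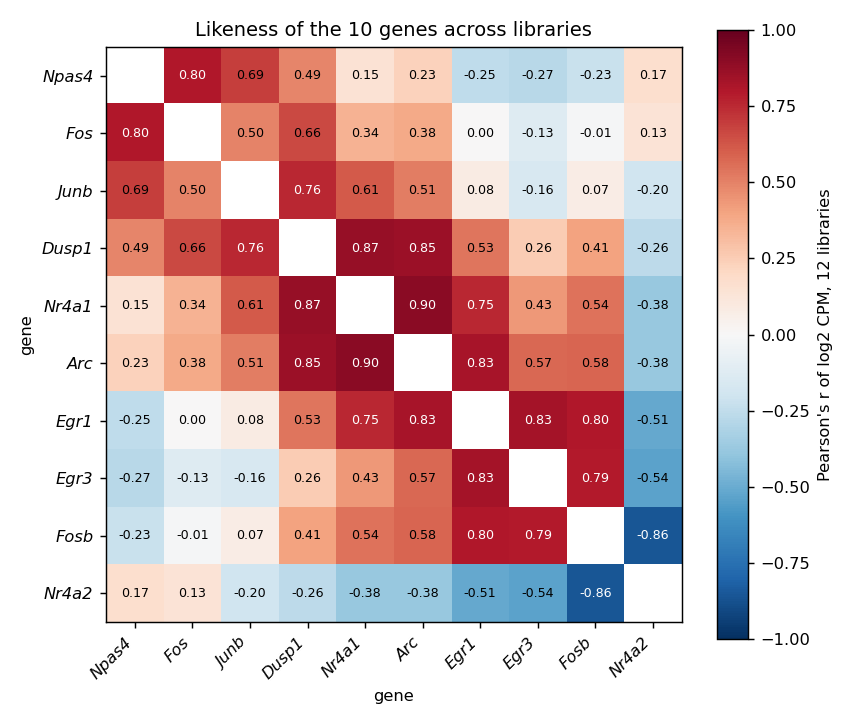
Pearson's r of log2 CPM across 12 libraries for each pair of the 10 genes, listed on both axes in the same order, with red for positive and blue for negative values and the value in each cell. Arc, Nr4a1 and Dusp1 form the reddest block, Npas4 and Fos pair at 0.80, and the Nr4a2 row is mostly blue.

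Nr4a2 went with cortical markers. Of 140 relations between a member and the mean level of a list, 12 passed at an adjusted permutation p of 0.05 for both Pearson's r and Spearman's rho, 3 of them with Nr4a2. Against the 9 claustrum and subplate markers Nr4a2 had r of 0.95 (permutation adjusted p = 0.0014) and rho of 0.99 (permutation adjusted p = 0.0014) over 12 libraries. All p values of these relations are from 100000 permutations, two-sided, and before adjustment that of rho here, 1e-05, is the smallest they can give. The lists were chosen with earlier results of these data known, and the p values do not account for that choice. They are adjusted over the 140 relations only. For Nr4a2 and the claustrum and subplate markers, r was 0.93 without the 2 libraries farthest from the list's median. It was 0.97 on deviations from the group means. Against the 10 cortical excitatory markers r was 0.91 (permutation adjusted p = 0.00364) and rho 0.90 (permutation adjusted p = 0.0098), with r of 0.83 without the 2 farthest libraries and 0.93 within groups. Against the delayed secreted and synaptic genes r was 0.81 (permutation adjusted p = 0.0261) and rho 0.80 (permutation adjusted p = 0.0395), with r of 0.80 without the farthest 2 and 0.84 within groups. None of the cortical or claustrum markers was at 0 in any library, and several of them, such as Nrgn, Gng2 and Tle4, are also made in striatal neurons, and Synpo2 stands in the thalamic list too. Nr4a2 itself had r of -0.51 with the length slope, and the part of the slope in these relations was not tested. By single genes, those most like Nr4a2 over the 12 libraries were Ptpru, B3galt2, Rtn4r, Engase and Tbr1, the last a transcription factor of deep-layer cortical neurons, with r of 0.92 to 0.93.

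**Figure D5:**
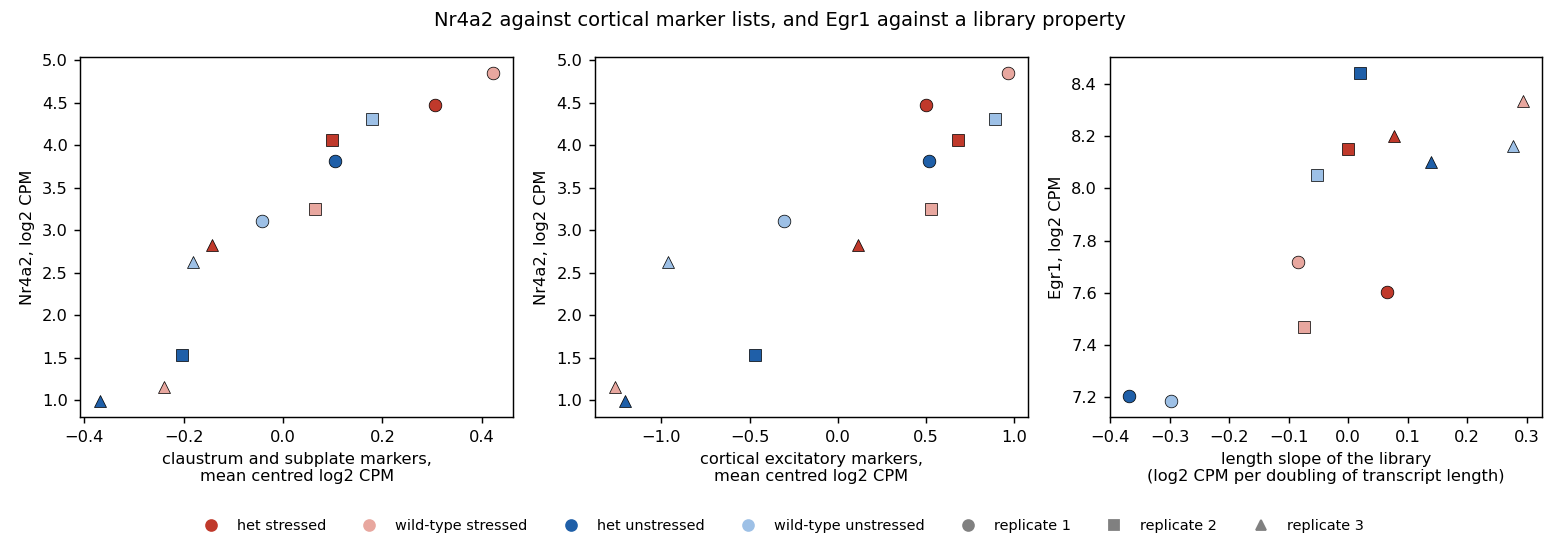
Log2 CPM of Nr4a2 (vertical axis) against the mean centred log2 CPM of claustrum and subplate markers (left) and of cortical excitatory markers (middle), and log2 CPM of Egr1 against the length slope of each library (right); points are 12 libraries, with colour for group and shape for replicate number. Nr4a2 climbs with both marker lists, with r of 0.95 and 0.91, and Egr1 is lowest in the 2 libraries of lowest slope.

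Fosb showed the opposite relation to claustrum and subplate markers, with r of -0.83 (permutation adjusted p = 0.019) and rho of -0.88 (permutation adjusted p = 0.0104), with r of -0.81 without the farthest 2 and -0.88 within groups. The other rapid transcription factor genes followed Nr4a1 (r of 0.94, rho of 0.89, permutation adjusted p = 0.0021 and 0.0104), Arc (r of 0.90, rho of 0.88, permutation adjusted p = 0.00187 and 0.0104), Dusp1 (r of 0.84, rho of 0.86, permutation adjusted p = 0.0189 and 0.0154) and Egr1 (r of 0.79, rho of 0.78, permutation adjusted p = 0.0298 and 0.0474). Without the 2 farthest libraries those r were 0.91, 0.93, 0.78 and 0.71 in the same order. Spiny neuron markers followed Egr3 (r of 0.89, rho of 0.80, permutation adjusted p = 0.0014 and 0.0395) and Egr1 (r of 0.77, rho of 0.78, permutation adjusted p = 0.0298 and 0.0474), with r of 0.80 and 0.64 without the 2 farthest libraries. Upstream regulators followed Egr1 (r of 0.85, rho of 0.83, permutation adjusted p = 0.00863 and 0.0332) and Fosb (r of 0.75, rho of 0.78, permutation adjusted p = 0.0329 and 0.0474), with r of 0.63 and 0.68 without the 2 farthest. On log2 CPM, Egr1, Egr3 and Fosb had the highest r of the members with the length slope, and Npas4 (-0.68) the lowest. On log2(TPM + 1), Arc, Dusp1 and Nr4a1 went with it too, at 0.71, 0.69 and 0.65. The part of the slope in these relations was not tested.

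Across 14525 genes with a mean of at least 1 CPM, the pattern most like the mean of the 10 standardized members belonged to Egr2 (r of 0.90) and Egr4 (0.82), followed by Casp2 (0.81), Zbtb9 (0.76), Pdk4 (0.75), Mob1a (0.74), AU022252 (0.74) and Gca (0.74), over 12 libraries. On deviations from the group means these r lay between 0.67 and 0.87.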

How the data were processed

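Striatal RNA of 12 mice was sequenced after NuGen library preparation from polyA RNA with random primers, per the labels. RSEM and Bowtie were used with mm9 (NCBIM37), per the submitters' processing notes; neither their versions nor any use of strand is given there. The deposited gene tables give an expected count and a TPM value per gene and library, and the deposited transcript tables give the percent of a gene's RNA assigned to each transcript, per the file headers. The 5hmC tables of the series were not used here.

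Rounded expected counts of genes passing filterByExpr entered edgeR 4.0.16 in R 4.3.3 (TMM factors, robust glmQLFit, glmQLFTest), with the 4 group means over all 12 libraries. P-values are two-sided and adjusted by Benjamini-Hochberg over 15955 genes, with calls at 0.05. The biological coefficient of variation was 0.256. Log2 CPM used a prior count of 2. The limma fit on log2(TPM + 1) used genes with a mean of at least 1 TPM instead of that filter. DESeq2 1.42.0 and limma 3.58.1 (voom with sample weights, and log2(TPM + 1)) were alternatives, with other scalings, no filter, 2 groups alone, a replicate term and each library left out. The scripts were tested on simulated data. List levels are means of centred log2 CPM, compared with members by permutation and adjusted over 140 relations.

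All 10 members are described. Fold changes are printed for all in the averaged comparisons and elsewhere for the 2 with the smallest p; each list names its 2 members with the smallest p by genotype, of which 4 genes are not reported here. The members, lists and rules were chosen with earlier results of these data known. Replicates are separate mice of unstated litters, and p-values refer to the spread among them. Stress was given to dams, so mice of the same litter would not be independent for it. The SEs and p-values take the mice as independent, and shared litters could not be tested. No pair of replicates agreed within sampling noise (chi-square of 8.85 to 219 per gene), so none was counted as a duplicate. Overlapping and antisense genes cannot be told apart.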

Additional observations from a re-analysis of the deposited data

How the results depend on the processing

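The 32 printed fold changes of members gave 682 values under alternatives, of which 652 kept sign and side of the threshold and 30 changed sign, all of them uncalled. Averaged over genotype, the stress value became -0.38 for Egr1 and -0.25 for Egr3 in limma-voom. On log2(TPM + 1) it became 0.087 for Fosb and 0.038 for Dusp1, where the median of all genes also shifted by 0.14. With the replicate number as a block it was -0.024 for Fos. With each library's length slope as a covariate, an alternative chosen after seeing the data like the next, it was -0.12 for Egr1, and without the 2 libraries of lowest slope -0.24 for Egr1 and -0.14 for Egr3. Of list genes by genotype, Cdkn1a became 0.21 and P2ry12 -0.085 in limma-voom, and Cux2 0.0016 on log2(TPM + 1). The cause was not tested.

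Leaving out 1 library gave, for the genotype average, -0.038 to 0.28 for Fosb, -0.015 to 0.27 for Egr1, -0.033 to 0.31 for Egr3, -1.05 to 0.26 for Nr4a2, -0.26 to 0.058 for Cdkn1a, -0.34 to 0.026 for Cux2, -0.032 to 0.15 for Slco1a4, -0.21 to 0.042 for Gfap and -0.20 to 0.0021 for Mbp. For the stress average it gave -0.21 to 0.18 for Fos, -0.19 to 0.090 for Fosb, -0.13 to 0.15 for Egr1 and -0.047 to 0.29 for Egr3. The median r of member pairs was 0.30 to 0.43 over these fits, 0.525 on log2(TPM + 1) and 0.31 on deviations from group means.

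Genes called over the whole table by genotype were 1 in unstressed mice (DESeq2 2, limma-voom 983, limma on log2(TPM + 1) 2, only the 2 groups 0, a library left out 0 to 2), 1 in stressed mice (3, 3, 2; a library left out 0 to 1) and 1 averaged (DESeq2 2, limma-voom 10, log2(TPM + 1) 2, no filter 2, slope covariate 4; a library left out 1 to 2). For prenatal stress edgeR called 0 in wild-type mice (DESeq2 12, limma-voom 43, a library left out 0 to 1), 0 in het mice (limma-voom 14) and 0 averaged (DESeq2 3, limma-voom 6). Between het stressed and wild-type unstressed mice it called 1 (DESeq2 2, limma-voom 49, log2(TPM + 1) 2, only the 2 groups 0, a library left out 0 to 1). The count in unstressed mice was 0 without any 1 of the het stressed libraries or het unstressed replicate 2, and 2 without het unstressed replicate 3. That in stressed mice was 0 without any 1 of the het stressed libraries or wild-type stressed replicate 2. The average had 2 without het unstressed replicate 3, and stress in wild-type mice 1 without wild-type unstressed replicate 3. Between het stressed and wild-type unstressed mice the count was 0 without any 1 of the het stressed libraries, het unstressed replicate 2 or 3, or wild-type unstressed replicate 1. Members called stayed at 0 except 1, Egr3, in limma-voom by genotype in unstressed mice.

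Of 18 pairs of libraries with the same replicate number, 9 deviated together with r above 0.1 (range -0.26 to 0.67). Of the 12 libraries, 8 correlated best with their own number. Whether the number marks a batch is not stated in the labels and was not tested. With the replicate block, edgeR called 1 gene and 0 members in the genotype average, and 0 of either in the stress average. With 3 mice a group, differences of the size seen for Nr4a2, Npas4 and Fos were within the spread between mice.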
